A study of Mus musculus with 2 samples.

Results

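The miRNA genes Mir3057 to Mir3113 were taken by the number in their symbol, which in miRBase follows the order in which miRNAs were described. A run of such numbers therefore collects hairpins that were named at about the same time and not a family of common descent. All counted genes with a symbol from Mir3057 to Mir3113, with any suffix, were members, apart from 3 on the plus strand of chromosome 12 within the imprinted Dlk1-Dio3 region. They came to 47 of the 1973 counted genes. Their evolutionary age was not measured here, so they are called by their numbers.

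The samples form 1 group of 2 libraries, made from forebrain of mouse embryos of strain B6NCrl and mixed sex at 10.5 days of development. Replicate 1 pooled tissue from 69 embryos and replicate 2 from 51 embryos, and the libraries held small RNA under 30 nt. With a single group the design holds no comparison between conditions, and the question is how well each gene was counted and whether both pools gave it the same level. On the gene's own strand, replicate 1 gave 3256070 gene counts in all and replicate 2 gave 3574530. A level in CPM is a gene's count scaled to this total. As each read spans a whole miRNA, levels were not divided by length. A count of 10 corresponds to 3.07 CPM in replicate 1 and 2.80 CPM in replicate 2, and a count of 0 allows up to 3 counts, or 0.921 and 0.839 CPM. Paired counts give replicate 1 first, and positions are 1-based on mm10. Of the genes given with a position, Mir3058, Mir3062, Mir3064, Mir3071, Mir3074-1, Mir3080, Mir3081, Mir3086, Mir3095 and Mir3102 lie on the minus strand and the others on the plus strand.

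A miRNA is cut from a hairpin in a longer transcript. In the usual route the nuclease Drosha frees the hairpin and Dicer then cuts off its loop, leaving a duplex of which 1 strand guides Argonaute to target mRNAs through its seed, bases 2 to 8. Many hairpins lie in introns of protein-coding genes and are carried by the host transcript. In mirtrons, an end of the hairpin is set by splicing of the intron in place of Drosha.

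The best counted members with an unchanged gene model, meaning the same identifier version in the deposited files and in the annotation used for positions, were Mir3102, Mir3061, Mir3093, Mir3066, Mir3099 and Mir3058. Their mature sequences show which small RNAs the counts can hold, since reads of both arms of a hairpin were added into 1 count. Capitals mark the seed, and sequences run 5′ to 3′. Sequences are those of RefSeq on GRCm38.p6, which held a mature sequence for 44 of the 47 genes and a hairpin for 40.
miR-3102-5p: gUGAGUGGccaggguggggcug
miR-3102-5p.2-5p: gGUGGUGCaggcaggagagcc
miR-3102-3p.2-3p: cUCUACUCccugccccagcca
miR-3102-3p: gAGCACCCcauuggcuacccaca
miR-3061-5p: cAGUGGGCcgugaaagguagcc
miR-3061-3p: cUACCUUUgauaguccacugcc
miR-3093-5p: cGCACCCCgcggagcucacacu
miR-3093-3p: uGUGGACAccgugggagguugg
miR-3066-5p: uUGGUUGCuguagauuaaguag
miR-3066-3p: cACUUAAUagaccgcaaccugc
miR-3099-5p: cCAGCUUCcuuccagcccuug
miR-3099-3p: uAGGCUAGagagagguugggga
miR-3058-5p: uCAGCCACggcuuaccuggaaga
miR-3058-3p: uUCCUGUCagccgugggugcc

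The 85 mature sequences of these genes carried 84 different seeds, so the number range holds almost no seed families. The 1 seed found in several members joins the next pair, whose hairpins lie on chromosomes 11 and 19. Mir3064 had 59 and 51 counts, in replicates 1 and 2, and Mir3085 had 4 in each.
miR-3064-5p: uCUGGCUGuuguggugugcaaa
miR-3085-3p: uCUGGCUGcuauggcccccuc
Of the 84 seeds, 11 also occur in miRNA genes outside the range or without a count of their own. The best counted of those genes was Mir702, with 336 and 337 counts, whose seed is that of miR-3102-5p.
miR-702-5p: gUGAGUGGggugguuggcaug

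Of the 47 members, 23 reached 10 counts in replicate 1 and 24 in replicate 2, and 21 reached 10 in both, which is 44.7%. Over all counted genes, 20.5% reached 10 counts in replicate 1, 20.6% in replicate 2 and 19.5% in both. Among the genes Mir1 to Mir999, 282 of 465 reached 10 in both libraries. The counts were 23 of 82 from Mir1000 to Mir3056, 14 of 72 from Mir3114 to Mir5999 and 26 of 373 from Mir6000 upward. The share of the members thus lay below that of Mir1 to Mir999 and above those of the other number ranges, among them the earlier Mir1000 to Mir3056. Shares by number are a description with no test. No count in either library was found for 3 of the 47 members, 115 of 465 genes from Mir1 to Mir999, 38 of 82 from Mir1000 to Mir3056, 31 of 72 from Mir3114 to Mir5999 and 183 of 373 from Mir6000 upward. Of all 1973 genes 1234 had none, and 864 of these were among the 931 genes with other kinds of symbol. Reads with several places in the genome are given to no gene here, so genes with close copies can lack counts for that reason. Copies such as Mir467a-2 and Mir466b-4, from Mir1 to Mir999, had 0 counts. Of the 44 members with a RefSeq mature sequence, only Mir3074-1 shares it with another gene. The shares by number thus do not compare detection alone. Tissue levels of this kind cannot tell fewer cells that make a miRNA from less of it per cell.

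**Figure D1:**
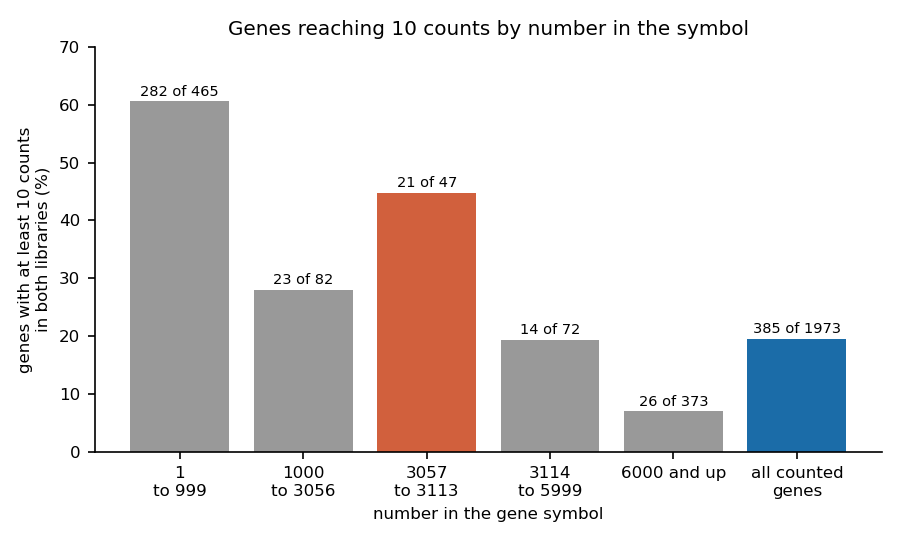
Share of genes (%) with at least 10 counts in both libraries, by the number in the gene symbol and for all counted genes. The label on each bar gives the genes reaching 10 counts and the genes counted. Mir3057 to Mir3113 reached 44.7%, between 60.6% for Mir1 to Mir999 and 28.0% for Mir1000 to Mir3056.

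Reaching 10 counts did not make these genes abundant. The 47 members held 4459 counts in replicate 1, or 0.137% of the gene counts (95% exact Clopper-Pearson interval 0.133 to 0.141), and 5108 in replicate 2, or 0.143% (0.139 to 0.147). Such intervals cover counting error only. Of these counts, Mir3071 and Mir3074-1 held 2616 and 3050, and the 45 other members 1843 and 2058, which is 0.0566% and 0.0576% of the gene counts. Among members reaching 10 in both libraries the median level was 17.3 CPM, or 17.0 CPM without Mir3071 and Mir3074-1. It was 185 CPM over all genes that reached 10 in both. By number it was 410 CPM from Mir1 to Mir999, 19.5 CPM from Mir1000 to Mir3056, 6.44 CPM from Mir3114 to Mir5999 and 11.9 CPM from Mir6000 upward. Levels above 100 CPM were found in 3 members, among them Mir3071 and Mir3074-1, and in 218 of all 1973 genes, of which 201 were from Mir1 to Mir999. From Mir1000 to Mir3056 there were 6 such genes, or 7.32% of that range beside 6.38% of the members. There was 1 from Mir3114 to Mir5999, and there were 2 from Mir6000 upward.

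**Figure D2:**
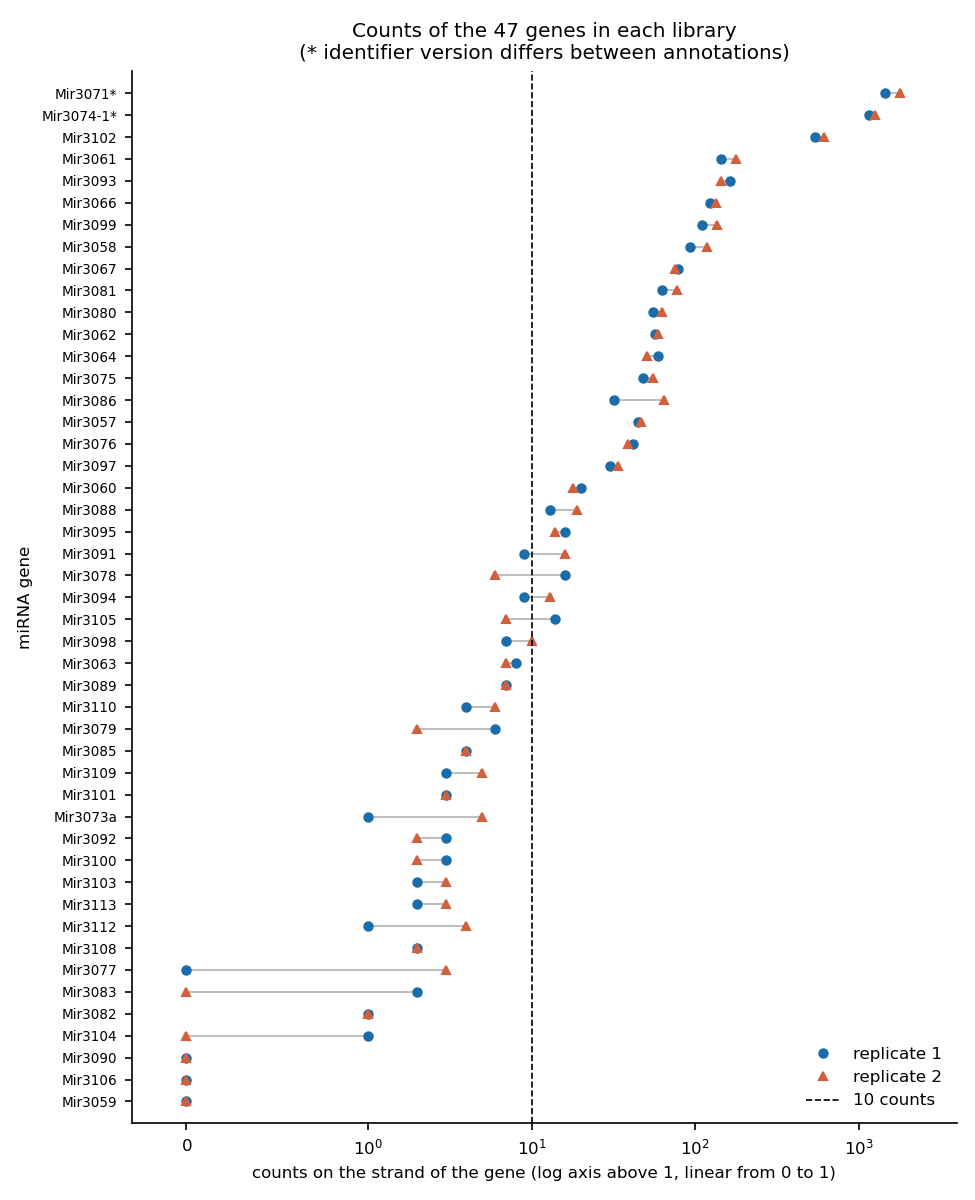
Counts on the strand of the gene for each of the 47 genes, circles for replicate 1 and triangles for replicate 2. The dashed line marks 10 counts, and stars mark Mir3071 and Mir3074-1. Counts ran from 0 to 1792, with 21 genes at or above the line in both libraries.

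Mir3071 and Mir3074-1 had the highest counts, yet which strand their counts stand for is not known. They are the 2 members whose identifier carries another version in the annotation used for positions than in the deposited files, so the gene model that was counted may have had another extent or strand. Mir3071 had 1450 and 1792 counts, and Mir3074-1 had 1166 and 1258. In the later annotation each hairpin lies on the minus strand, over a hairpin on the plus strand that has no count of its own here.

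For Mir3071, at chr12:109595318-109595397, that hairpin is Mir136, a miRNA of the imprinted region whose 62 nt are all contained in it. The mature sequences of the pair are complementary over most of their length and carry different seeds.
miR-3071-5p: aCUCAUUUgagacgaugaugga
miR-3071-3p: aUCAUCAAaacaaauggagucc
miR-136-5p: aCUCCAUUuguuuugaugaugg
miR-136-3p: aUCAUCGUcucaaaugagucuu
The minus strand here is coding sequence of Rtl1, a retrotransposon-derived gene of the region. Opposite-strand counts at Mir3071 were 0 in both libraries, so all reads that were counted there came from 1 strand of the model. Elsewhere in the region, gene models on the minus strand with an unchanged version showed the reverse. Gm24321, Gm25252 and Gm25750 had 0 counts on their own strand and 8225 to 68806 on the other. Whether the counts of Mir3071 are those of Mir136 could not be tested from these files.

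For Mir3074-1, at chr13:63301199-63301283, the plus-strand hairpin is Mir24-1, whose 68 nt are again all contained in it. Both strands were counted here, with 179 and 162 counts on the opposite strand of the model beside the 1166 and 1258 on its own. The mature miR-3074-5p is identical at Mir3074-2 on chromosome 8, and miR-24-3p has a copy at each of its loci. The deposited counts give no read with several places in the genome to a gene, so reads of these arms are missing. RefSeq held no other mature sequence for Mir3074-1, so which small RNAs its counts hold is not known.
miR-3074-5p: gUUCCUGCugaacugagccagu
miR-24-1-5p: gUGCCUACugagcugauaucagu
miR-24-3p: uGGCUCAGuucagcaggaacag
The hairpin lies in an intron of Fancc, a gene of the Fanconi anaemia DNA repair pathway. On the other strand, the protein-coding gene 2010111I01Rik overlaps the same place. Mir27b, which the later annotation also puts on that other strand, lies 414 nt away and had 3031 and 2921 counts. Mir23b of the same cluster had 20867 and 19779.

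Mir3102 was the best counted member with an unchanged model, with 542 counts in replicate 1 and 618 in replicate 2, or 170 ± 4.5 CPM (SD, n = 2). At chr7:100882306-100882409 on the minus strand, its hairpin covers a whole 104-nt intron of Arhgef17, with 0 nt left over at either end. The 4 mature sequences printed above lie along it as an outer and an inner pair of arms. How the counts divide between outer and inner arms cannot be told apart. Of 4 annotated transcripts of the gene, the hairpin is intronic in 2 and exonic in 1. It held 29.4% of the counts of the 45 members with an unchanged model in replicate 1 and 30.0% in replicate 2.

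The next 5 genes had between 93 and 179 counts per library. Mir3061 had 144 and 179 counts and lies at chr11:52126746-52126836 in an untranslated part of an exon of Ppp2ca, the catalytic subunit of a serine/threonine phosphatase. Mir3066 had 123 and 135 counts and lies at chr12:17355392-17355474, 77 nt into an intron of Nol10, which encodes a nucleolar protein. Mir3058 had 93 and 118 counts and lies at chr10:95559231-95559321 in an intron of Nudt4, a phosphohydrolase of inositol pyrophosphates. All 3 were higher by count in replicate 2, the library with more gene counts. By level Mir3066 had 37.8 CPM in each, and none of the 3 differed beyond counting error.

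Mir3093 lies in the transcript of a brain miRNA and Mir3099 in an imprinted gene. Mir3093 had 164 counts in replicate 1 and 144 in replicate 2, at chr3:88215171-88215257 in an intron of the non-coding gene Gm3764, which carries Mir9-1, a locus of the neural progenitor miRNA miR-9, on the same strand. Mir9-1 has no count of its own here. The counted model at its position, Gm25641, lies on the other strand 331 nt from Mir3093, with 0 counts on its own strand and 99 and 140 on the opposite one. Mir3099 had 110 and 136 counts, at chr7:6803587-6803670 in an intron of Usp29, a paternally expressed gene of the imprinted Peg3 domain.

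Genes with 30 to 80 counts per library lay in introns with the exception of Mir3057. Mir3067 (79 and 75 counts) lies at chr12:81166151-81166234 in Smoc1, which encodes a secreted calcium-binding protein. Mir3081 (63 and 78) lies at chr16:44558046-44558129 in Boc, a co-receptor for Sonic hedgehog, 308 nt into an intron of 37102 nt. Mir3080 (55 and 63) lies at chr15:82959218-82959296 in Tcf20, a transcriptional co-regulator. Mir3075 (48 and 55) lies at chr14:25534439-25534523 in Zmiz1, a co-regulator of transcription factors. Both libraries gave these 4 genes close levels, and the widest gap after scaling was that of Mir3081, 1.17-fold higher in replicate 2.

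Mir3062, Mir3064, Mir3076 and Mir3097 lie at an end of their intron. Mir3062 (57 and 59 counts, chr11:68990574-68990678) is in Pfas, an enzyme of purine synthesis. Mir3064 (59 and 51, chr11:106782693-106782759) is in Ddx5, an RNA helicase that works with Drosha. Mir3076 (42 and 39, chr14:30572149-30572208) is in Tkt, the transketolase of the pentose phosphate pathway. Mir3097 (30 and 34, chr5:35021049-35021115) is in Rgs12, a regulator of G protein signalling. Mir3057 (45 and 47, chr10:81271597-81271687) overlaps coding sequence in an exon of Apba3, an adaptor protein. None of these 5 genes differed between libraries beyond counting error.

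Mir3086 was the member with an unchanged model that differed most clearly. It had 32 counts in replicate 1 and 65 in replicate 2, at chr19:58911673-58911759 in an intron of Hspa12a, a distant member of a heat shock protein family. Its opposite strand had 3 and 4 counts.
miR-3086-5p: uAGAUUGUaggcccauugga
miR-3086-3p: cCCAAUGAgccuacagucuaag

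The lowest genes to reach 10 in both libraries were Mir3060, Mir3088 and Mir3095. Mir3060 had 20 and 18 counts, in an intron of the RING finger gene Rnf215 (chr11:4139364-4139446). Mir3088 had 13 and 19 counts, in an intron of the adenylate kinase gene Ak8 (chr2:28733278-28733351). Mir3095 had 16 and 14 counts, in an intron of the lysophosphatidic acid receptor gene Lpar1 (chr4:58441012-58441098). Moving the minimum to 20 counts leaves 18 genes and lowering it to 5 gives 28.

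Another 5 genes reached 10 counts in 1 library only. In the other library they had 6 to 9 counts, so they missed the minimum there by a few reads. Mir3091 had 9 and 16 counts (chr2:180257536-180257611, an intron of the ribosomal protein gene Rps21). Mir3094 had 9 and 13 (chr4:40993695-40993758, an intron of Nfx1). Mir3098 had 7 and 10 (chr6:125195792-125195878, an untranslated part of an exon of the mitochondrial ribosomal protein gene Mrpl51). These genes reached the minimum in replicate 2. Mir3105 had 14 and 7 (chr7:144009254-144009338, an intron of Shank2, a scaffold protein of synapses). Mir3078 had 16 and 6 (chr14:64591185-64591271). Both reached it in replicate 1.

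Mir3078 lies in an exon of Mir124a-1hg, the non-coding host of the neuronal miRNA Mir124a-1, on the same strand and 443 nt away. Mir124a-1 itself had 3 and 4 counts. Reads of miR-124 map to several loci, so its own count leaves out such reads. Among members with an unchanged model, only Mir3078 and Mir3064 had another counted miRNA gene on their strand within 10 kb. The neighbour of Mir3064, Gm25994, lies 411 nt away and had 0 counts in both libraries.

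The remaining 21 genes stayed under 10 counts in both libraries. Those with any count ran from 0 to 8 counts in replicate 1 and from 0 to 7 in replicate 2. Mir3063, in an untranslated part of an exon of the RNA-binding protein gene Igf2bp1, had 8 and 7 counts, and Mir3089, which is intergenic, had 7 in each. Mir3059, Mir3090 and Mir3106 had 0 in both, which allows levels of up to 0.921 CPM in replicate 1 and 0.839 CPM in replicate 2.

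By the later annotation, all 21 members that reached 10 counts in both libraries lay inside a host gene on its strand, 18 in introns and 3 in exons, and 20 of the hosts were protein-coding. Without Mir3071 and Mir3074-1, whose counted strand is not known, 19 of 19 did, 17 in introns and 2 in exons. Among the 26 members that did not reach 10 in both, 20 lay inside a host. The 6 members outside a host, of which 3 lie on the opposite strand of a gene and 3 between genes, had 0 to 7 counts per library, and none of them reached 10 in either. Over all counted genes with a position, 54.5% lay inside a host on its strand, and of those reaching 10 in both libraries 263 of 385 did, or 68.3%. Of all 47 members 41 did, so a host gene was common among well and poorly counted members alike, and no test was made of the difference. For the place in the host, 1 annotated transcript was enough. Mir3074-1 is intronic in 1 of 19 transcripts of Fancc, and Mir3067 in all 3 of Smoc1. Mir3102 and Mir3064, placed among the intronic members, are each exonic in 1 other transcript of their host. Whether the counts follow the hosts' own expression was not tested, since no host transcript was measured.

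**Figure D3:**
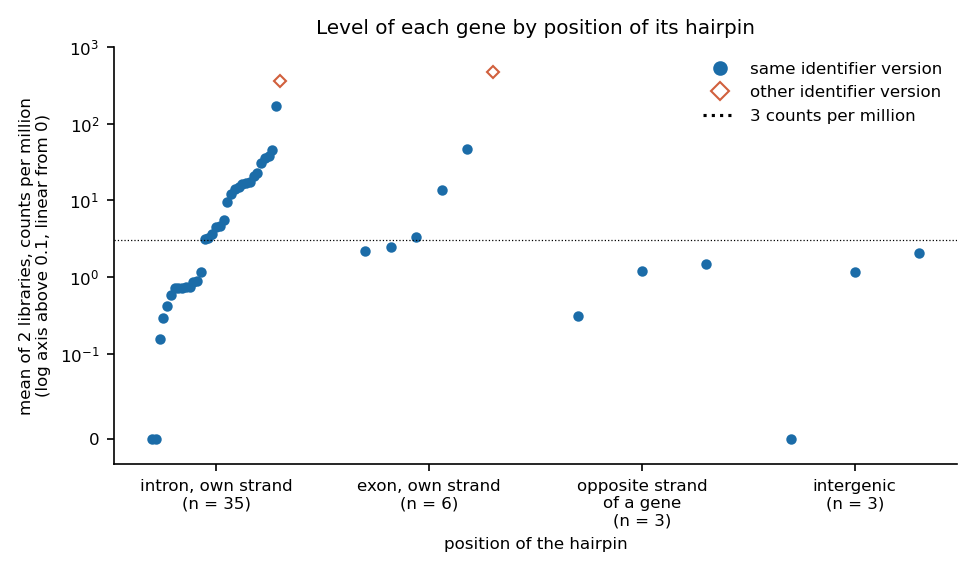
Mean level over 2 libraries (CPM, log axis above 0.1) of each gene by the position of its hairpin. Diamonds are Mir3071 and Mir3074-1, whose identifier version differs, and the dotted line marks 3 CPM. The 6 genes on the opposite strand of a gene or between genes all lie at or below 2.05 CPM.

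Among the 35 intronic hairpins, 11 end within 2 nt of the 3′ end of an annotated intron, a limit chosen after the positions were seen. Mir3102 and Mir3062 also start within 6 nt of the intron's start and so fill it, at 104 and 97 nt. Of the 11, 5 reached 10 counts in both libraries, and of the 24 other intronic members 13 did. Median levels were 3.20 and 4.53 CPM, and both sets spanned the range from under 1 CPM to above 100. Above 100 CPM lay Mir3102 at the intron's end and, in the other set, Mir3074-1, whose counted strand is not known. Without Mir3074-1 the other set reached 45.3 CPM, at Mir3093, and only Mir3102 lay above that. The levels of both sets otherwise overlapped almost fully, and processing as mirtrons was not measured.

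Of these 11 hairpins, 7 have a RefSeq sequence and no untranslated exon around them, and in all 7 the last bases of the intron inside the hairpin read AG, the splice acceptor. The choice of hairpins at an annotated intron end largely fixes these bases, so they are a description and no test. Below, those bases are in capitals, for genes from 59 counts down to 2.
Mir3062: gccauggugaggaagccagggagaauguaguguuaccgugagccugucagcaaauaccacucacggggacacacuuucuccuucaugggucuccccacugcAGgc
Mir3076: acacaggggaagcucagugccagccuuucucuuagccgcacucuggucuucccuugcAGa
Mir3097: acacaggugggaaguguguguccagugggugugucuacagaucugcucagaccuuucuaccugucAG
Mir3094: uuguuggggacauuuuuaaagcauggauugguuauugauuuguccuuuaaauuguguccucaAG
Mir3100: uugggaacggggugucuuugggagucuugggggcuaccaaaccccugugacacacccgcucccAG
Mir3100, in an intron of the kinase gene Dmpk (chr7:19086828-19086892), had 3 counts in replicate 1 and 2 in replicate 2, so an end at the splice acceptor was shared by hairpins with very different counts.

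**Figure D4:**
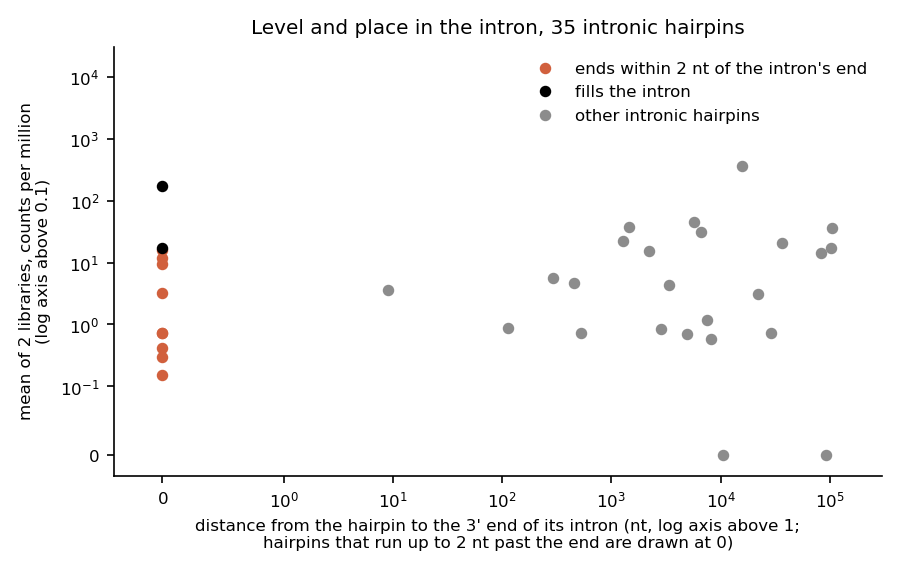
Mean level over 2 libraries (CPM) against the distance from the hairpin to the 3′ end of its intron (nt) for the 35 intronic genes, both on log axes with 0 shown. Hairpins at the intron's end run from 0.154 to 170 CPM, the others from 0 to 355 CPM, or to 45.3 CPM without Mir3074-1.

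Well and poorly counted members had hairpins of similar composition. Among hairpins with a RefSeq sequence, the 20 members reaching 10 counts in both libraries had a median GC content of 54.0% (42.2 to 69.0), and the 20 others had 54.2% (34.4 to 73.4). The predicted folding energy per nt had medians of −0.45 kcal/mol and −0.47 kcal/mol. These are values for the whole hairpin, compared without a test.

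Few members differed between the pools beyond counting error. Of the 47, 25 had a mean count of at least 10 and were tested as part of all 401 such genes. The exact binomial test, two-sided with Benjamini-Hochberg adjustment over the 401 genes, called 2 members different, both lower in replicate 1, against 43.6% of all genes tested. The members had a median mean count of 55, against 551 for all genes tested, and at low counts only larger ratios can pass. Their median log2 ratio of replicate 1 over replicate 2 was −0.10, beside −0.05 for all genes, and its median size was 0.23, beside 0.17. Of the 25 log2 ratios, 15 were below 0 and 10 above, or 13 and 12 with scaling to total counts. The split of all called genes moved too, from 72 higher and 103 lower to 93 and 84. The test covers counting error between these 2 libraries only.

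**Figure D5:**
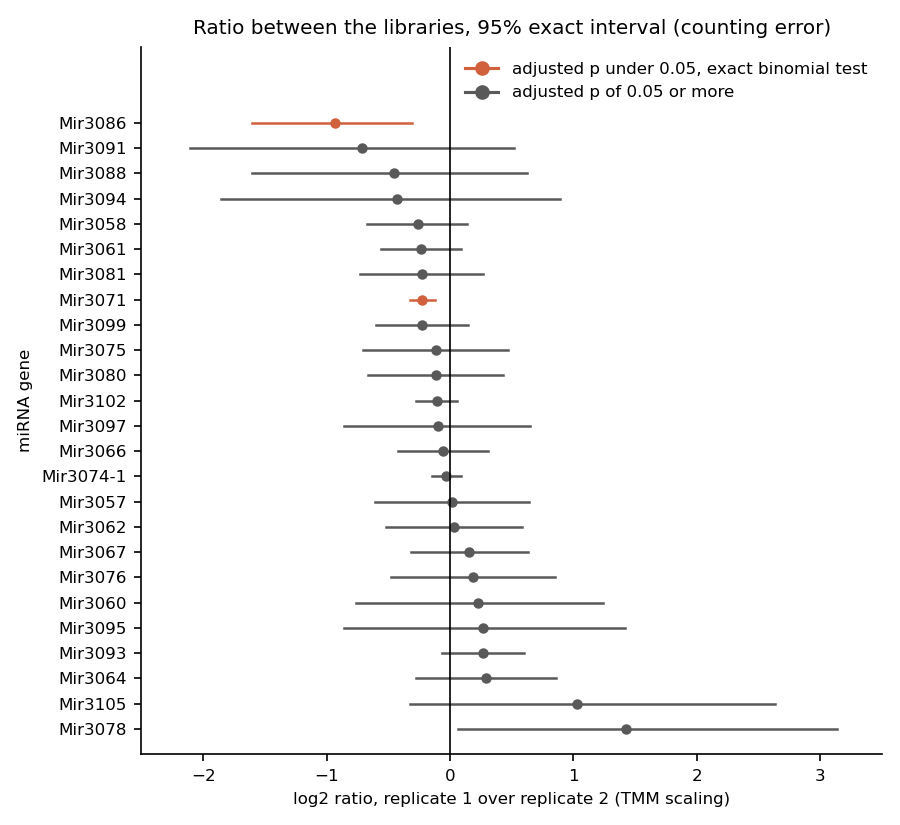
Log2 ratio of replicate 1 over replicate 2 for the 25 genes with a mean count of at least 10, with 95% exact intervals of counting error. Mir3086 and Mir3071, in colour, passed the exact binomial test. The intervals of the other genes cross 0, apart from that of Mir3078.

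Mir3086 fell by 0.93 on the log2 scale in replicate 1 (95% exact interval −1.60 to −0.31, adjusted p = 0.0062, exact binomial test). Its 32 and 65 counts leave the size of that difference uncertain. Mir3071 fell by 0.22 (−0.33 to −0.12, adjusted p = 3.6e-05, exact binomial test), with the limit on its identity given above. Mir3078, with 16 and 6 counts, had a log2 ratio of 1.42 (0.07 to 3.14) and missed the threshold (adjusted p = 0.069, exact binomial test). Mir3102 had a ratio of −0.11 (−0.28 to 0.06) and Mir3074-1 of −0.03 (−0.15 to 0.09), the narrowest intervals among members that missed the threshold.

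The label of the tissue was set beside miRNAs known from its cells and from others. The summed level of the list used for neural progenitors, 5 of 6 counted, was 52654 CPM in replicate 1 and 48603 in replicate 2. Nearly all of it came from Mir130a, a broadly expressed miRNA with a mean of 31916 CPM, and Mir92b, with 18228 CPM. The neuronal list, 6 of 6 counted, summed to 619 and 450 CPM. Its highest gene was Mir137, with a mean of 431 CPM. The neuronal list also holds the Mir124a and Mir128 genes, and the progenitor list holds the Mir9 genes. The Mir124a, Mir128 and Mir9 genes have several loci and so lose reads in these counts. The sums of both lists therefore cannot be compared. Endothelial Mir126a had 29029 and 31930 CPM. Summed levels in replicates 1 and 2 were 720 and 641 CPM for leukocyte, 693 and 792 for erythroid, 245 and 309 for hindbrain and trunk, 31.6 and 29.4 for muscle and 10.7 and 9.79 for liver miRNAs. Of the 5 counted muscle genes the highest was Mir208b, with a mean of 28.0 CPM, and 3 were at 0. The 3 at 0 are Mir1a and Mir133a genes, which also have several loci, so their zeros do not show that the miRNAs were absent. Which of these cells gave the counts of the members was not tested.

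The 3 genes of this number range left out for their place on chromosome 12 were Mir3072, with 522 and 582 counts, Mir3070a, with 26 and 31, and Mir3070b, with 2 and 4. Another 8 hairpins in the range had no count of their own and were not analysed here as genes. Among them, Mir3065 lies over Mir338 and Mir3107 over Mir486, each on the other strand.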

How the data were processed

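Small RNA under 30 nt was sequenced from 2 pools of forebrain at 10.5 days. Per the deposited file notes, raw gene counts were made on mm10 with genome annotation M4. The aligner, trimming and counter were not given in the sources used here. Counts on the gene's own strand were used. Tallies belonging to no gene were left out of library sizes. They held 24.6% and 25.4% of the reads as unmapped, 30.1% and 28.8% as mapping to several places and 7.28% and 8.82% as outside genes, in replicates 1 and 2.

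Positions and symbols came from GENCODE M21, which matched 1894 of the 1973 identifiers, 1815 with the same version. A hairpin is intronic where at least 80% of it lies in an intron of a transcript on its strand. Effective sizes used TMM (edgeR 4.0.16, R 4.3.3). The exact binomial test compared each gene's counts with them (scipy 1.17.1), with a pseudocount of 0.5 in ratios. It was tried on data simulated with set fold changes and counting error alone. Such data cannot show how the test behaves on libraries that differ by more than counting error. Folding used ViennaRNA 2.7.2. A chi-square statistic 45.4 times its degrees of freedom over 483 genes showed that the libraries are not 1 library deposited again. Whether the pools are independent beyond being separate samples is not stated, and with 1 library against 1 the p-values measure departure from counting error only, with no estimate of spread.

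Members and lists were chosen with earlier results of these data known. Every member reaching 10 counts in a library was named, with its neighbours on the same strand within 10 kb. Others named were chosen after their values were seen. Alternatives were other count minimums, either strand, total or DESeq2 (1.42.0) scaling, other filters and leaving out a library.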

Additional observations from a re-analysis of the deposited data

Results flagged for a closer look

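Counts, levels and tests used reads on the strand of the gene. Among the members and the hairpins of their number range without a count of their own, reads on the opposite strand exceeded the 3 counts that a count of 0 allows at 4 places. At Mir3074-1 they numbered 179 in replicate 1 and 162 in replicate 2. At Mir3086 there were 4 in replicate 2. Opposite-strand counts of Mir486, which is the strand of the uncounted hairpin Mir3107, numbered 20 and 17 in replicates 1 and 2. Those of Mir24-2, the strand of Mir3074-2, numbered 6 in replicate 1. In no member did opposite-strand counts exceed those on its own strand.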

How the results depend on the processing

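The number of members reaching the minimum in both libraries stayed between 18 and 28 over minimums of 5 and 20, either strand, the chromosome 12 region and an unchanged identifier version, and each such count was within 1.5 times the 21 reported. No member's hairpin overlaps another counted gene, so leaving out such members changed nothing. A single library gave 23 to 24 genes. The members' share of gene counts, 0.140% on average, was 0.0926% without Mir3071, the most abundant, and 0.0571% with unchanged versions only, an alternative added after the data were seen. It was 0.137% and 0.143% in single libraries. Genes inside a host and reaching the minimum numbered 18 to 27 over the alternatives. The 2 calls between libraries became 1 with a mean count of at least 100, where Mir3086 is not tested and 8 members are, and 1 with unchanged versions only. They stayed 2 with total or DESeq2 scaling and with no filter. No call can be made with a library left out. Without replicate 1 the level of Mir3078 was 1.68 CPM in place of 3.30 CPM, and that of Mir3105 was 1.96 CPM in place of 3.13 CPM. The other 24 levels moved by less than 1.5 times when a library was left out. No paired analysis was possible because there is only 1 group. Depth limits the weakest genes most, since 26 of 47 members had under 10 counts in at least 1 library.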
